A study of Mus musculus with 2 samples.

Results

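Matrix metalloproteinases (Mmp) and tissue inhibitors of metalloproteinases (Timp) were examined in adherent and neurosphere GL261 cells. The 10 genes, of 32285 in the matrix, were chosen by symbol: 7 proteases (Mmp2, Mmp11, Mmp14, Mmp15, Mmp16, Mmp17 and Mmp28) and 3 inhibitors (Timp1, Timp2 and Timp3). Neurosphere cells held more UMIs of Mmp15 and Mmp16 relative to their total and fewer of Timp1, Timp2, Timp3, Mmp2, Mmp11 and Mmp28. A UMI is a unique molecular identifier, 1 counted transcript molecule, and levels are given as CPM, the UMIs of a gene scaled to 1000000 UMIs of the library. Summed over the genes, 1 protease UMI was counted for 5.92 Timp UMIs in adherent cells, and 4.59 protease UMIs were counted for each Timp UMI in neurosphere cells.

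GL261 is a mouse glioma line of strain C57BL/6 background, and its cell type label is astrocytoma. Adherent cells grew attached in DMEM with serum and were taken near confluency. Neurospheres are floating aggregates, which formed in the same medium after the supplement B-27 and the epidermal and fibroblast growth factors, each at 20 ng/ml, were added, and they were collected after 12 days. Adherent cells were detached with trypsin, while neurospheres were placed in trypsin, per the labels, and broken up by repeated pipetting, so the way of dissociation and the culture cannot be told apart. Both were frozen in medium with DMSO before single cells were captured, and 1 droplet library of transcript 3' ends was made from each. Each group is therefore 1 culture of 1 cell line, without stroma, vessels or immune cells of a host, so no difference between the cultures has a replicate check and no test between them was possible. The 95% intervals given in brackets cover counting error only.

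Matrix metalloproteinases are zinc-dependent enzymes that cut collagens, laminins, proteoglycans and many cell surface proteins, and they are made as inactive precursors. Some are secreted, whereas others are held at the cell surface by a transmembrane segment or a lipid (GPI) anchor. Timp proteins bind the active site of these enzymes and block it, so the amounts of enzyme and inhibitor together set how much matrix is cut. At the cell surface, Mmp14 and Timp2 form a complex that captures and activates the Mmp2 precursor, and in gliomas these enzymes are known for their part in the invasion of brain tissue.

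The promoters of the genes that the results turn on are shown because the 3 Timp genes were lower together in neurosphere cells while Mmp15 was higher. RefSeq sequences (GRCm38.p6, a patch release of the assembly named mm10) from 250 bases before to 50 bases after the gene start were found for 7 of the 10 genes. No sequence was read for Mmp2, Mmp16 and Mmp17. Capitals mark the GC box GGGCGG, read on either strand. The 4 promoters lie at chr8:95352046-95352345 (Mmp15, plus strand), chrX:20869916-20870215 (Timp1, plus strand), chr11:118355362-118355661 (Timp2, minus strand) and chr10:86300162-86300461 (Timp3, plus strand).
Mmp15: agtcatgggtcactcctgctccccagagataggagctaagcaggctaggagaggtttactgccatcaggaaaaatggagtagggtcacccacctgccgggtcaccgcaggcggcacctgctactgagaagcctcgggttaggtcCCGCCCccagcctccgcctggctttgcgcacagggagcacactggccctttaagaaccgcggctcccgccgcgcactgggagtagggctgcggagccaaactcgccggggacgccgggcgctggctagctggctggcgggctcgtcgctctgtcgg
Timp1: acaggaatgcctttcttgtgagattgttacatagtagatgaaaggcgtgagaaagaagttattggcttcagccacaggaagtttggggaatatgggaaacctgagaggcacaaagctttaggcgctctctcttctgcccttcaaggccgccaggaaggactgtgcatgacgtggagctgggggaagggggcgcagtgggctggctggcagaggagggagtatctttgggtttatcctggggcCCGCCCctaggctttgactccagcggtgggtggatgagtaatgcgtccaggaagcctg
Timp2: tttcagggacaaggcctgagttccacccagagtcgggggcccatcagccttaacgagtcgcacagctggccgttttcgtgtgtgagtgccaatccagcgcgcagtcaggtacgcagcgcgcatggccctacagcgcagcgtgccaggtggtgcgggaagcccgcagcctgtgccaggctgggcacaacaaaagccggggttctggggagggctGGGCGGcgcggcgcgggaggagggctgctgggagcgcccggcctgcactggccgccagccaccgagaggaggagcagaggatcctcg
Timp3: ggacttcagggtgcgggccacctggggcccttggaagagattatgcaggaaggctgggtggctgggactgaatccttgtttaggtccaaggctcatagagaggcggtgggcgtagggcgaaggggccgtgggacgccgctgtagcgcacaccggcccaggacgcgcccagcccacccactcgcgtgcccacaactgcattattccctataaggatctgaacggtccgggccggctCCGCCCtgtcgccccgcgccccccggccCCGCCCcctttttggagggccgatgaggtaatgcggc
A GC box was found in 7 of the 7 promoters and in 35.7% of 32851 promoters of the same length, so genes on both sides of the balance carried it. The bases G and C made up 55% (Timp1) to 68.7% (Timp2) of the 7 promoters, against a median of 52.7% over all promoters. The part of this base composition in the matches was not tested. The 6 motifs were searched on both strands. No match to the AP-1 motif TGANTCA (7.81% of all promoters), the TATA box TATAAA (13.6%) or the CRE motif TGACGTCA (1.79%) was found in the 7. The Timp1 promoter was the only 1 of the 7 with the AP-1-like letters TGAGTAA (2.68% of all promoters) and the TEAD motif GGAATG (14.7%). These matches describe letters in the window, and binding was not measured.

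The depth of the 2 libraries differed. After barcodes with few genes and the mitochondrial and ribosomal genes were removed, 5051 adherent cells held 46290996 UMIs (median 8260 per cell) and 4276 neurosphere cells held 64943938 UMIs (median 13198.5). Shares of cells are therefore given after each cell was thinned to 5000 UMIs, a depth that 4464 adherent and 4196 neurosphere cells reached and 587 and 80 did not. The libraries had 12 cell barcodes in common. Of the astrocyte markers, Aqp4 and Sox9 had 0 UMIs in both libraries (which allows up to 0.0648 CPM in adherent culture and 0.0462 CPM in neurospheres), and Gfap was at 0.648 and 0.416 CPM, adherent first. The 7 astrocyte markers summed to 556 and 349 CPM, with Slc1a3 at 370.4 and 80.5 CPM, Gja1 at 20.5 and 8.13 CPM and S100b at 161 and 255 CPM. Of the 5 with enough UMIs, 2 were over 2-fold lower and 0 higher in neurosphere cells, against 11.7% and 21.7% of all genes. Summed levels of the 6 immune markers were 10.6 and 4.59 CPM, nearly all from Cd68 (10.5 and 4.25 CPM). Ptprc was at 1 and 0 UMIs, and Csf1r at 5 and 19 UMIs. The 5 endothelial markers summed to 1.49 and 3.79 CPM with Cdh5 at 0. Most of that sum came from Pecam1 (1.32 and 3.20 CPM, log2 fold change 1.28). The 5 fibroblast markers summed to 9.16 and 392 CPM, with Col1a1 and Dcn carrying most of the neurosphere sum. Col1a1, Dcn, Lum and, at low counts (1 and 23 UMIs), Col1a2 thus moved with the culture as Mmp15 and Mmp16 did, whereas Pdgfra was at 6.61 and 4.87 CPM. The part of these genes in the results was not tested. No cell type that should lack these genes was present to show how much detection free RNA gave.

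**Figure D1:**
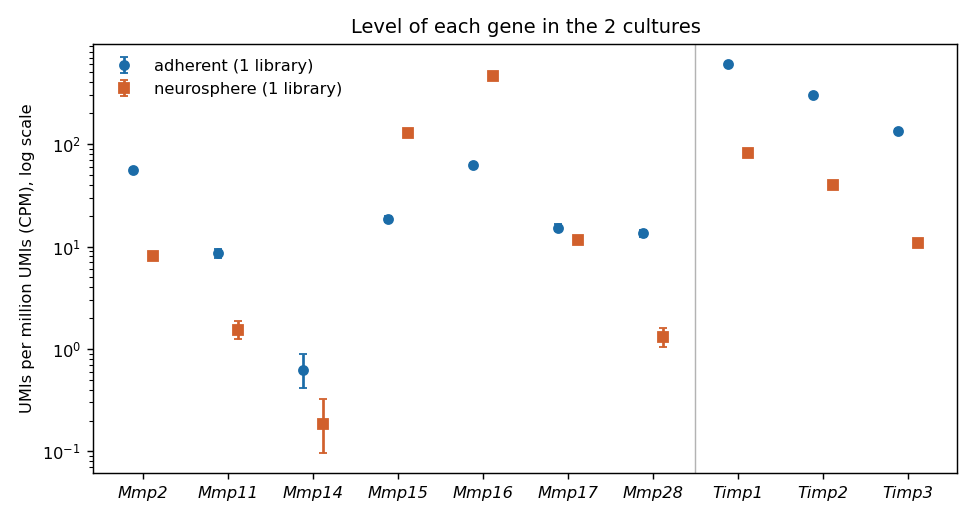
Level of each of the 10 genes in CPM (log axis) in the adherent library (blue circles) and the neurosphere library (orange squares), with 95% Poisson intervals that are often smaller than the symbols. Mmp15 and Mmp16 lie higher in the neurosphere library, Mmp17 lies close in both, and the other 7 genes, including Timp1 at 605 and 82.0 CPM, lie lower.

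Of the 10 genes, 9 had at least 50 UMIs over both libraries, with Mmp14 below that minimum. Among these, 2 were over 2-fold higher in neurosphere cells, where 21.7% of 14654 genes with as many UMIs were, and 6 were over 2-fold lower, where 11.7% were. Mmp17 was within 2-fold. The median log2 fold change was -2.79 over the 9 genes and 0.32 over all 14654, on the scale of neurosphere over adherent CPM. The proteases were split (2 higher and 3 lower of 7), and the inhibitors were lower in 3 of 3.

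Mmp15 and Mmp16 encode transmembrane enzymes, and Mmp16 can, like Mmp14, activate the Mmp2 precursor. Mmp15 (ENSMUSG00000031790, chr8:95352268-95375080) was at 18.7 CPM in adherent culture and 127 CPM in neurospheres. Its intervals were far apart (17.5 to 20.0 and 124 to 130 CPM), and its level was 6.79-fold higher in the neurosphere library (log2 fold change 2.76 [2.66, 2.87]). After thinning, cells with a Mmp15 UMI made up 8.49% [7.69, 9.35] of the adherent library and 45.02% [43.5, 46.5] of the neurosphere library.

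Mmp16 (ENSMUSG00000028226, chr4:17852893-18119145) was at 63.1 CPM in adherent culture and 459.6 CPM in neurospheres, a log2 fold change of 2.86 [2.81, 2.92]. Mmp16 was detected in 24.3% [23.0, 25.6] of thinned adherent and 79.9% [78.7, 81.1] of thinned neurosphere cells. The gain was in level as well as in share, since positive cells held on average 1.29 UMIs in adherent and 3.21 UMIs in neurosphere cells after thinning (1.56 and 7.44 UMIs before it). Mmp16 spans 266 kb, the largest span of the 10 genes, and overlaps Gm11860 on the other strand. With the trend of fold change on gene span removed, its log2 fold change was 2.60. Mmp15 and Mmp16 were at the 96.0th and 96.2nd percentiles of fold change among genes.

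Mmp14, the main surface activator of the Mmp2 precursor, was barely counted. It had 29 UMIs in adherent cells (0.626 CPM [0.420, 0.900]) and 12 in neurosphere cells (0.185 CPM [0.0955, 0.323]), so both levels were low and their intervals did not overlap. Its log2 fold change was -1.76 [-2.87, -0.75], and no cell of either library held more than 1 Mmp14 UMI. In thinned cells the log2 fold change was -2.82, from 15 and 2 UMIs. The transmembrane enzymes together were at 82.5 CPM in adherent culture and 587 CPM in neurospheres, nearly all from Mmp15 and Mmp16.

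Mmp17, the GPI-anchored enzyme of the list, differed least. Its level was 15.3 CPM [14.2, 16.5] in adherent culture and 11.5 CPM [10.7, 12.3] in neurospheres, a log2 fold change of -0.41 [-0.57, -0.26]. The intervals did not overlap, but the fold stayed within 2. The share of cells with a UMI went the other way without thinning (12.5% and 14.7%) and followed the level after thinning (7.30% and 5.70%), so the unthinned order is not read as a difference.

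The secreted enzymes were lower in neurosphere cells. Mmp2, the gelatinase that cuts type IV collagen of basement membranes, was at 55.9 CPM in adherent culture and 8.07 CPM in neurospheres, a log2 fold change of -2.79 [-2.93, -2.66]. A Mmp2 UMI was found in 23.9% [22.7, 25.2] of thinned adherent and 3.98% [3.41, 4.62] of thinned neurosphere cells. Mmp11 (stromelysin 3) had 8.55 CPM in adherent culture and 1.54 CPM in neurospheres (log2 fold change -2.47 [-2.81, -2.15]). Mmp28 (epilysin) had 13.5 and 1.31 CPM in the same order (log2 fold change -3.37 [-3.72, -3.04]), the lowest ratio among the 7 proteases. Mmp11 and Mmp28 each overlap another gene on the opposite strand (Chchd10 and 1700020L24Rik). Taking the 3 secreted enzymes together, their level was 78.0 CPM in adherent culture and 10.9 CPM in neurospheres, a log2 fold change of -2.84 [-2.96, -2.72].

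All 3 inhibitors were lower in neurosphere cells. Timp1 (ENSMUSG00000001131, chrX:20870166-20874735), a secreted inhibitor of most soluble Mmp enzymes, was at 605 CPM in adherent culture and 82.0 CPM in neurospheres. The log2 fold change of Timp1 was -2.88 [-2.93, -2.84], a level 7.38-fold lower. Timp1 UMIs were present in 86.6% [85.6, 87.6] of thinned adherent and 27.9% [26.6, 29.3] of thinned neurosphere cells. It lies opposite Syn1, in whose span it is located.

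Timp2, which inhibits surface enzymes and also takes part in Mmp2 activation, was at 300.1 CPM in adherent culture and 39.7 CPM in neurospheres (log2 fold change -2.92 [-2.98, -2.86]). Its share of thinned cells was 72.0% [70.7, 73.3] in adherent and 17.4% [16.3, 18.6] in neurosphere cells. Timp2 shares its strand with the overlapping gene Cep295nl, and the counting does not show here how their reads were split. Timp3, the inhibitor that binds to the matrix and also blocks Adam and Adamts enzymes, was at 136 CPM in adherent culture and 10.9 CPM in neurospheres. With a log2 fold change of -3.64 [-3.76, -3.53], a level 12.5-fold lower, Timp3 had the lowest ratio of the 10 genes, at the 1.09th percentile of all genes. A Timp3 UMI was found in 41.2% [39.8, 42.7] and 4.19% [3.61, 4.85] of thinned cells, and the gene lies opposite Syn3.

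The balance of protease and inhibitor transcripts differed between the cultures more than either sum. The 7 protease genes summed to 176 CPM [172, 180] in adherent culture and 609 CPM [603, 615] in neurospheres, and the 3 Timp genes to 1041 CPM [1031, 1050] and 133 CPM [130, 135]. Adherent cells had 0.169 protease UMIs [0.165, 0.173] for each Timp UMI, and neurosphere cells had 4.59 [4.49, 4.70]. This is a 27.2-fold higher ratio in neurosphere cells, or 4.77 [4.72, 4.81] on the log2 scale, and a ratio within a library does not depend on how the library was scaled.

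Mmp14, Mmp16, Timp1, Timp2 and Timp3 were each left out in turn, and among these Mmp16 moved the change of the balance most. Without Mmp16 the ratio was 0.108 in adherent and 1.13 in neurosphere cells, a log2 change of 3.38. UMIs of these libraries were not divided by transcript length. Where each gene's UMIs were divided by its span in kb (266 kb for Mmp16, 4.57 kb for Timp1), the ratio was 0.0360 in adherent and 0.435 in neurosphere cells. Per kb of span the neurosphere cells thus had fewer protease than Timp UMIs, while the log2 change between the cultures was 3.59 in the same direction. Gene span includes introns and is not transcript length, so this division does not give transcripts per cell. Whether the neurosphere ratio lay above 1 depended on this choice, and the difference between cultures kept its direction under both.

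**Figure D2:**
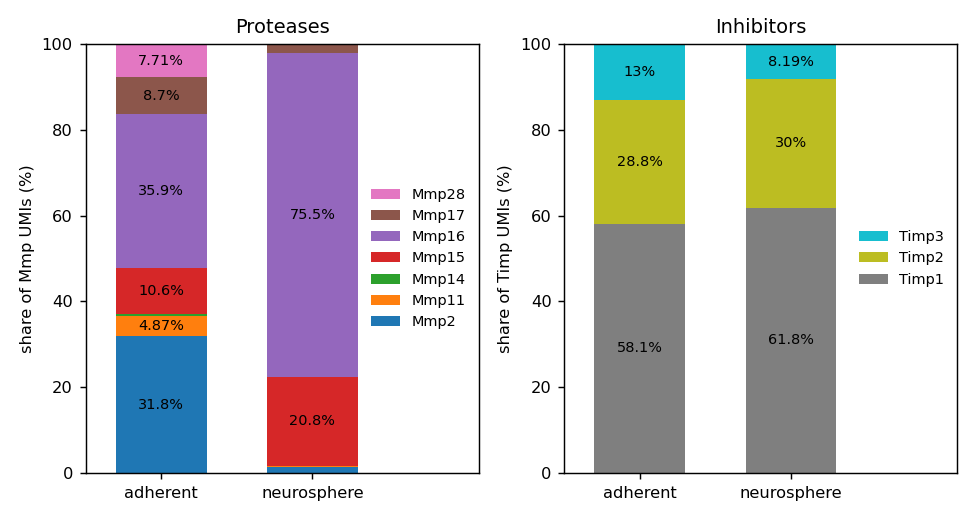
Share of each gene in the UMIs of the 7 Mmp genes (left) and of the 3 Timp genes (right) in each library, as stacked bars that sum to 100%. Mmp16 holds 35.9% of the adherent and 75.5% of the neurosphere protease UMIs, while Timp1 holds the most Timp UMIs in both, at 58.1% and 61.8%.

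The make-up of the protease UMIs differed as well. In adherent cells Mmp16 gave 35.9% [34.9, 37.0] of protease UMIs and Mmp2 gave 31.8% [30.8, 32.8], followed by Mmp15 with 10.6%, Mmp17 with 8.70%, Mmp28 with 7.71%, Mmp11 with 4.87% and Mmp14 with 0.356%. In neurosphere cells Mmp16 gave 75.5% [75.02, 75.9] and Mmp15 20.8% [20.4, 21.2], and the other 5 genes each gave under 2% of UMIs. Transmembrane enzymes accounted for 46.9% of protease UMIs in adherent and 96.3% in neurosphere cells, and secreted enzymes for 44.4% and 1.79%. The ratio of transmembrane to secreted UMIs was 1.06 [1.01, 1.11] in adherent and 53.7 [49.9, 58.0] in neurosphere cells, 50.9-fold apart.

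The inhibitors kept more similar proportions. Timp2 gave 28.8% of Timp UMIs in adherent and 29.97% in neurosphere cells, and Timp3 gave 13.03% and 8.19%. The ratio of Timp2 to Mmp2 UMIs was 5.37 [5.14, 5.60] in adherent and 4.92 [4.48, 5.42] in neurosphere cells, with overlapping intervals, so these partners were lower by similar factors. For each Mmp14 UMI there were 479 [333, 716] Timp2 UMIs in adherent and 215 [123, 417] in neurosphere cells. Timp3 UMIs stood at 1.64 [1.58, 1.71] for each transmembrane enzyme UMI in adherent cells and at 0.0185 [0.0171, 0.0199] in neurosphere cells.

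Per cell, the balance was counted in cells thinned to 5000 UMIs. In the adherent library, 89.6% [88.7, 90.5] of cells had more Timp than Mmp UMIs and 4.19% [3.62, 4.82] had more Mmp than Timp UMIs. The neurosphere library had the opposite order, with 77.7% [76.4, 78.9] of cells with more Mmp UMIs and 9.80% [8.91, 10.7] with more Timp UMIs. Without thinning, the larger class was 92.4% of adherent and 86.8% of neurosphere cells. The median cell held 1 Mmp and 4 Timp UMIs in the adherent and 3 Mmp and 0 Timp UMIs in the neurosphere library.

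**Figure D3:**
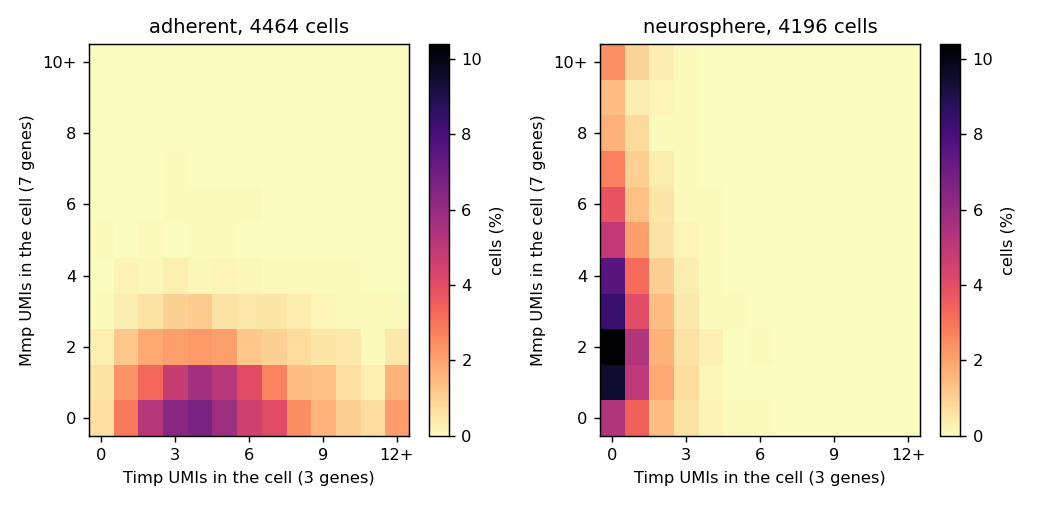
Thinned cells of each library by their number of Timp UMIs (x axis, 3 genes) and Mmp UMIs (y axis, 7 genes), with the colour giving the percent of the library's cells. Adherent cells lie along the x axis around 4 Timp UMIs, and neurosphere cells lie along the y axis, where 52.7% of cells had Mmp but no Timp UMIs.

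Cells with UMIs of both families were common in both libraries. In adherent cells, 54.7% had both, 43.7% had Timp only, 0.986% had Mmp only and 0.672% had neither. In neurosphere cells, 36.2% had both, 52.7% had Mmp only, 5.77% had Timp only and 5.31% had neither. The Pearson correlation of Mmp and Timp UMIs over cells was -0.056 in 4464 adherent and -0.079 in 4196 neurosphere cells, weak values in sparse counts and from cells of a shared library, and without thinning it was above 0 (0.105 and 0.048). Of the 3 transmembrane enzymes, 2 were detected together in 2.40% of adherent and 37.6% of neurosphere cells.

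The spread of UMIs over thinned cells also differed by gene. The variance over the mean, which is near 1 for counts drawn at random, was 3.53 for Timp1 and 2.06 for Timp3 in adherent cells. It was 2.59 for Mmp16 and 2.34 for Timp3 in neurosphere cells, where the highest number in a thinned cell was 21 UMIs for Mmp16 and 13 UMIs for Timp3. For Mmp2 it was 1.07 in adherent and 1.25 in neurosphere cells.

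Co-detection was the number of cells with UMIs of both genes over the number that the separate shares give. Pairs with at least 20 such expected cells numbered 33 in the adherent and 20 in the neurosphere library, of 45 pairs each. The median ratio was 1.00 in adherent and 0.986 in neurosphere cells. Over 1.2 lay 1 adherent and 3 neurosphere pairs, and none lay under 0.8. These counts moved with the thinning depth, and in adherent cells with the seed. The ratio stays near 1 where a gene is found in most cells, so these counts can miss departures. Adherent pairs with Timp1, found in 86.6% of thinned cells, cannot reach 1.2. Timp3 was in 39.9% [38.4, 41.5] of adherent cells with Timp1 and in 49.8% [45.7, 53.9] of those without, at a ratio of 0.968.

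**Figure D4:**
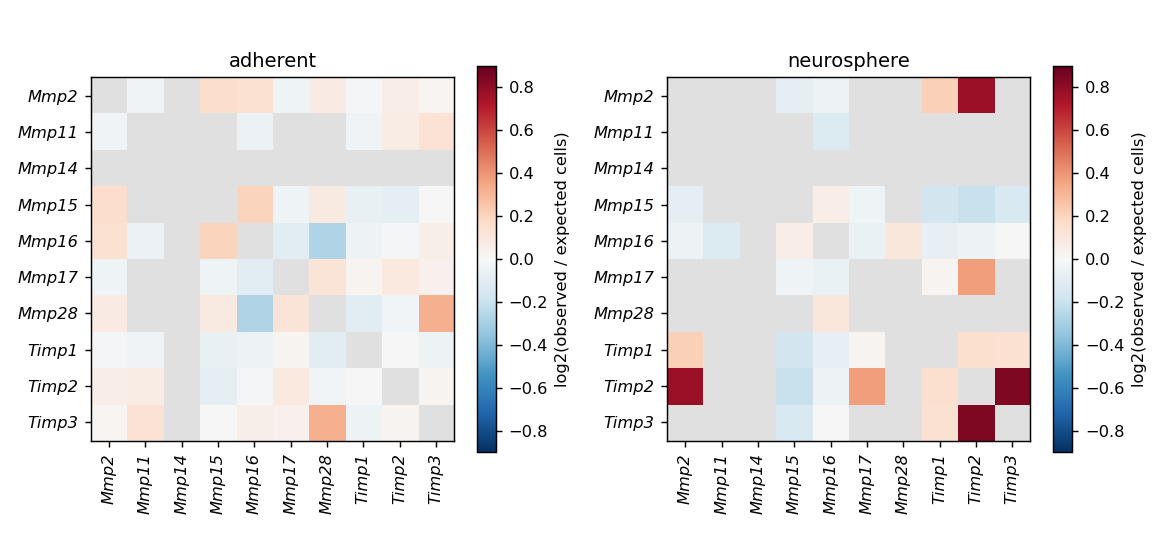
Observed over expected cells with UMIs of both genes, as log2 (red above 0, blue below 0), for each pair of the 10 genes in thinned adherent (left) and neurosphere (right) cells. Grey marks pairs with under 20 expected cells, and the darkest red squares are Timp2 with Timp3 (ratio 1.79) and Mmp2 with Timp2 (ratio 1.72) in neurosphere cells.

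In neurosphere cells, Timp2 and Timp3 had the highest ratio of the 20 pairs, at 1.79 [1.35, 2.33], with Timp3 in 7.51% of cells with and 3.49% of cells without Timp2. Mmp2 and Timp2 followed at 1.72 [1.27, 2.26], with Timp2 in 29.9% of the 167 cells with Mmp2 and in 16.9% of those without. When expected cells were summed within clusters, the ratios were 1.52 for Timp2 with Timp3 and 1.34 for Mmp2 with Timp2. The order of these 2 pairs turned with another seed (1.25 and 1.49), with 3000 UMIs per cell (1.30 and 1.68), without thinning (1.40 and 1.47) and without cells over the 95th percentile of UMIs (1.70 and 1.73). Mmp17 and Timp2 had a ratio of 1.30 [0.973, 1.69]. Mmp2 and Timp3, below the minimum with 7.005 expected cells, were together in 23 cells, a ratio of 3.28 [2.08, 4.93] and 2.57 within clusters.

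The lowest neurosphere ratios all paired Mmp15 with an inhibitor. They were 0.871 [0.773, 0.978] with Timp2, 0.892 [0.813, 0.976] with Timp1 and 0.909 [0.711, 1.14] with Timp3. Timp1 was detected in 24.9% of Mmp15-positive and 30.4% of Mmp15-negative cells. Within clusters these ratios were 0.926, 0.956 and 0.966, and without thinning the Mmp15 and Timp1 ratio was 1.02. Mmp15 and Mmp16 were found together at 1.04 [0.993, 1.10] times the expected number in neurosphere cells. Mmp16 was in 83.4% [81.6, 85.0] of cells with Mmp15 and in 77.1% [75.3, 78.8] of those without, intervals that did not overlap.

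In adherent cells the highest ratio was that of Mmp28 and Timp3, at 1.25 [1.05, 1.47], with Timp3 in 51.4% of the 278 cells with Mmp28 and in 40.6% of those without. This rank held for that draw of UMIs only, since the ratio was 1.15 with another seed, 1.16 with 3000 UMIs and 1.19 without thinning, below those of Mmp15 with Mmp16 (1.23, 1.41 and 1.27). Mmp15 with Mmp16 (1.15 [0.942, 1.39]) and Mmp2 with Mmp15 (1.11 [0.908, 1.36]) came next, with intervals that include 1. The lowest were Mmp16 with Mmp28 (0.829 [0.626, 1.08]), Mmp16 with Mmp17 (0.934) and Mmp28 with Timp1 (0.938 [0.820, 1.07]). Mmp2 and Timp2, which gave a high ratio in neurosphere cells, were at 1.04 [0.972, 1.12] here.

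The members of the Mmp2 activation complex were rarely seen in a single cell. Thinned adherent cells with Mmp14 numbered 15, of which 12 also held Timp2 and 3 held Mmp2, against 3.59 expected with Mmp2. All of Mmp2, Mmp14 and Timp2 were found in 2 of 4464 adherent cells, against 2.58 expected. In the neurosphere library, 2 cells held Mmp14, 1 of them with Timp2 and neither with Mmp2. At this depth a difference from the expected numbers was not detectable for Mmp14.

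To see how the genes varied within a culture, the cells of each library were clustered without the 10 genes. Clusters are named by the genes that led them, and they are parts of 1 library, not samples. The 10 adherent clusters had 0.0958 to 1.39 protease UMIs for each Timp UMI, and the 11 neurosphere clusters had 1.83 to 10.3. The adherent maximum came from a cluster of 48 cells led by Neat1, Adgrb3 and Slc35f1, which stood apart with a median of 2623.5 UMIs per cell and 12.3% mitochondrial UMIs. Without it the adherent maximum was 0.246.

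**Figure D5:**
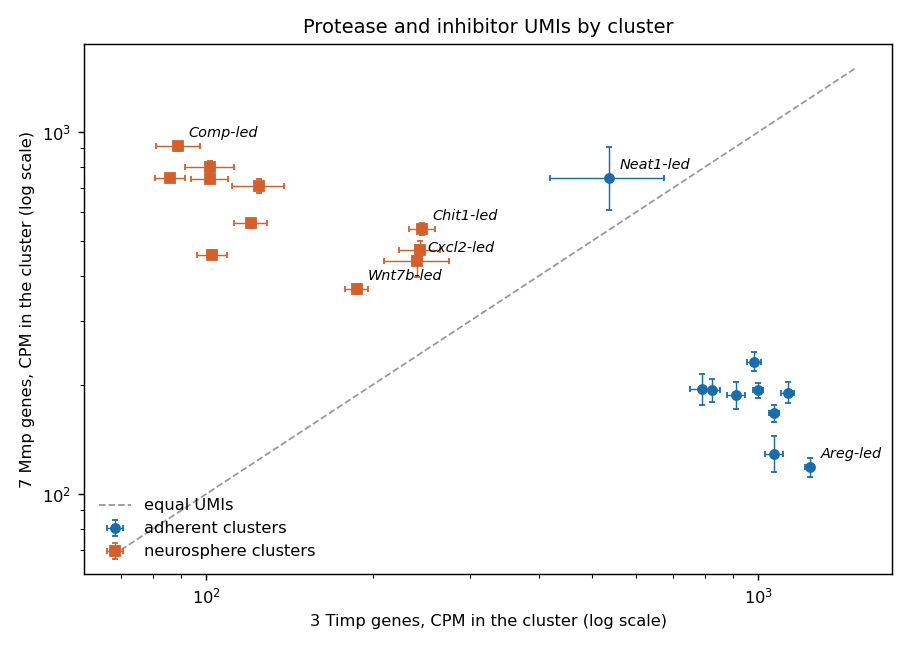
Summed CPM of the 3 Timp genes (x axis, log scale) and the 7 Mmp genes (y axis, log scale) in each adherent (blue) and neurosphere (orange) cluster, with 95% Poisson intervals and a dashed line where both sums are equal. The neurosphere clusters lie above the line, from a ratio of 1.83 to 10.3, and the adherent clusters below it except the Neat1-led cluster at 1.39.

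The range of cluster levels did not overlap between the cultures for 4 of the 10 genes, namely Mmp28, Timp1, Timp2 and Timp3. All 4 were lower in the neurosphere clusters, where 2.13% of 14654 genes had such ranges, and none was higher, where 7.01% of genes were (9.14% either way). Timp1 was between 196 and 843 CPM in the adherent and between 32.9 and 157 CPM in the neurosphere clusters. Timp2 lay between 148 and 409 CPM in the adherent and between 23.4 and 99.96 CPM in the neurosphere clusters, and Timp3 between 76.9 and 229 and between 5.14 and 29.4 CPM. For Mmp28 the gap was narrow, since the lowest adherent level (9.72 CPM [7.80, 12.0]) and the highest neurosphere level (9.04 CPM [3.903, 17.8], from 8 UMIs) had overlapping intervals. Without the Neat1-led cluster, Mmp15 and Mmp16 did not overlap either, which made 6 genes, and the share of all genes with such ranges was then 20.2% (14.7% higher and 5.55% lower).

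Among adherent clusters, Timp1 was highest (843 CPM [824, 862]) in the cluster led by Areg, Spink2 and Lcn2 and lowest (196 CPM [128, 287]) in the Neat1-led cluster. The Areg-led cluster also had the lowest levels of Mmp15 (14.0 CPM), Mmp16 (25.6 CPM), Mmp17 (11.2 CPM) and Mmp28 (9.72 CPM), and with them the lowest protease to Timp ratio. The Neat1-led cluster had the highest levels of Mmp15 (90.5 CPM [46.8, 158]), Mmp16 (498 CPM [385, 633]), Mmp17 (30.2 CPM [8.22, 77.3]) and Mmp28 (52.8 CPM [21.2, 109]). Its few UMIs and high mitochondrial share moved with these levels, and their part in them was not tested.

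Mmp2 was even over the adherent clusters, from a lowest level of 47.6 CPM in the cluster led by Ubtd1, Phlda2 and Grwd1 to a highest of 69.2 CPM. Timp2 was highest (409 CPM [387, 432]) in the cluster led by Tex14, Gm43689 and Gm47962 and lowest (148 CPM [132, 166]) in that led by Ly6a, Cd81 and Rgcc. Timp3 was highest (229 CPM [215, 243]) in the cluster led by Cd68, 9130015A21Rik and Serpinb1a and lowest (76.9 CPM [66.3, 88.8]) in the Ubtd1-led cluster. The 3 inhibitors thus had their highest levels in different adherent clusters.

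Among neurosphere clusters, Mmp16 was highest (739 CPM [716, 762]) in the cluster led by Comp, Pdzd2 and Ism1, where the protease to Timp ratio was also highest at 10.3. It was lowest (267 CPM [257, 278]) in the cluster led by Wnt7b, Btbd16 and Prss56. Mmp15 was highest (171 CPM [162, 182]) in the cluster led by Prr16, Sult1e1 and Pcdh11x and lowest (46.3 CPM [33.2, 62.8]) in that led by Cxcl2, Nppb and Ccl2. The Cxcl2-led cluster, of 75 cells, had the lowest ratio at 1.83 and the highest level of Timp3, at 29.4 CPM [19.2, 43.0].

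Mmp2 was concentrated within the neurosphere library. Its level was 48.4 CPM [39.6, 58.6] in the cluster of 119 cells led by Tnnt3, Lpcat2 and Tnni2, against a cluster median of 4.60 CPM and a minimum of 3.05 CPM in the Comp-led cluster. This level overlapped the lowest adherent cluster (47.6 CPM [39.3, 57.1]). The Tnnt3-led cluster, 2.78% of cells, held 20.0% of neurosphere Mmp2 UMIs, and the cluster led by Chit1, Spp1 and Iigp1, 10.1% of cells, held another 20.0%. By level the Cxcl2-led cluster came second, at 37.3 CPM [25.7, 52.4] from 33 UMIs, above the Chit1-led cluster at 18.5 CPM [15.1, 22.4].

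The Tnnt3-led cluster was also highest for Mmp17 (24.0 CPM [17.9, 31.4]) and Timp1 (157 CPM [140, 174]). Timp1 was lowest (32.9 CPM [27.3, 39.4]) in the cluster led by Enpp2, Dusp15 and Mbp. Timp2 was highest (99.96 CPM [91.9, 109]) in the Chit1-led cluster, which held 22.0% of its UMIs, and lowest (23.4 CPM [20.5, 26.6]) in that led by Cdc20, Arhgef39 and Plk1. Mmp17 and Timp3 were lowest in the Comp-led cluster, at 8.19 and 5.14 CPM.

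Over clusters, levels of some of the genes moved together. The Pearson correlation of log2 CPM is given as a description over 10 adherent and 11 neurosphere clusters, which share a library and differ in depth. Mmp2 and Timp3 correlated in both cultures (0.76 in adherent and 0.85 in neurosphere clusters, with 0.73 in adherent clusters without the Neat1-led cluster). Timp1 went against Mmp16 (-0.90 and -0.79, with -0.69 without that cluster) and against Mmp15 (-0.85 and -0.87, with -0.45 without it). Mmp15 and Mmp16 correlated at 0.87 and 0.66, but at 0.42 in adherent clusters without the Neat1-led cluster.

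Many other pairs had opposite signs in the cultures, so the pairs named above are not typical of the list. Mmp2 and Timp2 were at -0.41 in adherent and 0.81 in neurosphere clusters, and Mmp15 and Mmp17 at 0.77 and -0.79. Mmp2 and Mmp15 were at 0.60 in adherent and -0.83 in neurosphere clusters. Mmp17 and Timp1 were at -0.94 in adherent and 0.73 in neurosphere clusters. The difference between cultures was not tested for any pair. Timp1 and Timp2 had the same sign, at 0.39 in adherent and 0.48 in neurosphere clusters, but were at -0.16 in adherent clusters without the Neat1-led cluster.

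Genes with the most similar profiles were sought among 7597 genes with at least 500 UMIs in each library, by the mean of the 2 correlations. Mmp16 was close to Lrp6 (0.97), a Wnt co-receptor, with a gene span of 120 kb against a median of 25.6 kb for the candidates. Gene span moved with this likeness, and its part was not tested. Mmp15 was closest to Smoc1 and Gfpt2 (0.92 each), Mmp2 to Ifi44 (0.89) and Msn (0.86), and Mmp17 to Rai1 and Tulp3 (0.88 each). Timp1 was closest to Comtd1 (0.93) and Emp3 (0.92), Timp2 to Zfp637 (0.92) and Lbh (0.89), and Timp3 to Map7d1 (0.83) and Scd1 (0.81). Without the Neat1-led cluster, adherent correlations fell from 0.93 to 0.76 for Mmp15 with Smoc1 and from 0.92 to 0.77 for Timp1 with Comtd1. That of Timp1 with Emp3 fell from 0.90 to 0.67. Some others rose, as that of Timp2 with Lbh from 0.82 to 0.91. The remaining Mmp11, Mmp14 and Mmp28 had too few UMIs for a profile.

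Cells with and without a Krt8 UMI differed in several of the genes within the neurosphere library. The cells were split without thinning, and the part of depth was not tested. Mmp2 was at 16.7 CPM [14.5, 19.1] in 1055 neurosphere cells without and at 5.91 CPM [5.27, 6.61] in 3221 cells with Krt8, and the protease to Timp ratio was 5.36 and 4.40 in the same order. Timp2 (52.0 and 36.7 CPM), Timp3 (14.8 and 9.88 CPM) and Mmp16 (544 and 438 CPM) were also higher without Krt8, while Timp1 was lower (68.1 and 85.5 CPM). In the adherent library the ratio was 0.172 without and 0.108 with Krt8.

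The rest of the pathway was read from lists of related genes. Of 16 other Mmp and Timp genes in the matrix, 2 had at least 50 UMIs, and both were over 2-fold lower in neurosphere cells, where 11.7% of all genes were. Timp4, a further inhibitor, was at 30.6 and 4.22 CPM (log2 fold change -2.86 [-3.05, -2.67]), adherent first. Mmp19 was at 1.36 and 0.262 CPM (log2 fold change -2.38 [-3.24, -1.59]). Mmp9, the other gelatinase, had 5 and 7 UMIs.

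Of 9 Adam genes, sheddases and related enzymes of the cell surface, 6 were measured, with 2 over 2-fold higher, 1 lower and 3 within 2-fold. Over all 14654 genes with enough UMIs, 21.7% were over 2-fold higher and 11.7% lower. Adam12 was at 7.22 and 77.5 CPM (log2 fold change 3.42), Adam10 had a log2 fold change of 1.18, Adam19 one of -1.50 and Adam15 one of -0.51. Of 19 Adamts genes, secreted enzymes that cut proteoglycans and other matrix proteins, 13 were measured. Of these, 3 were higher (21.7% of all genes were), 5 lower (11.7% of all genes) and 5 within 2-fold. They ranged in both directions, with log2 fold changes of 2.53 for Adamts6, 2.23 for Adamts13, -2.37 for Adamts14 and -2.34 for Adamts12.

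Among 11 activators and partners, 6 were measured, with 1 higher, 1 lower and 4 within 2-fold. These counts are near the shares of all genes, 21.7% higher and 11.7% lower. Plaur, the urokinase receptor, was at 90.1 and 16.1 CPM (log2 fold change -2.48). Pcsk7, a proprotein convertase, had a log2 fold change of 1.37 and Plat, the tissue plasminogen activator, one of 0.20, whereas Furin, the convertase that cuts membrane-type Mmp precursors, had -0.18. Cd44, a hyaluronan receptor that docks proteases at the cell surface, had -0.97. Bsg, an inducer of Mmp genes, was at 1424 and 1523 CPM, within 2-fold.

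Of 8 other inhibitors and clearance genes, 5 were measured, with 3 higher and 2 lower, against 21.7% and 11.7% of all genes. Lrp1, a receptor that clears proteases and their complexes, had a log2 fold change of -1.46. Serpine2, which inhibits plasminogen activators and thrombin, was at 0.734 and 9.36 CPM (log2 fold change 3.67), and Reck, a membrane-anchored Mmp inhibitor, was at 1.34 and 3.08 CPM (log2 fold change 1.201). Spock1, a proteoglycan, had 2 and 57 UMIs (log2 fold change 4.34 [2.43, 7.42]). The 8 genes summed to 30.2 and 17.3 CPM, adherent first.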

How the data were processed

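Single-cell 3' gene expression was measured in 1 adherent and 1 neurosphere library. The deposited files hold raw UMI count values per gene and cell, which the authors made with Cell Ranger 7.0.1 on mm10 (submitters' processing notes). The annotation and the intron setting are not given in the sources used here, so intronic and exonic UMIs cannot be told apart.

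Mitochondrial (13) and ribosomal (101) genes were removed. Cells with at least 1000 UMIs and at least 1250 (adherent) or 2250 (neurosphere) genes were kept, which left 5051 of 5764 and 4276 of 4951 called cells. UMIs were summed per library and divided by its total. Doublets were not called; leaving out cells over the 95th percentile of UMIs was an alternative. Levels have exact Poisson, shares exact Clopper-Pearson and fold changes exact conditional 95% intervals. Co-detection ratios have Poisson intervals on the observed cells with the expected number held fixed. These are too wide for genes found in many cells, where the shares with and without the other gene are the closer reading. The zero floor was 3 counts, genes past 2-fold were counted where both libraries together held 50 UMIs or more, and no gene was tested, as each culture had 1 library. For co-detection, cells were thinned at random to 5000 UMIs. Cells were clustered with Seurat 5.3.0 (2000 variable genes without the 10, 17 and 18 principal components, resolution 1), and other steps used Python 3.11.15, numpy 2.4.6, scipy 1.17.1 and, for TMM scaling, edgeR 4.0.16. Gene positions came from GENCODE vM21 (GRCm38).

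Alternatives were other cell filters, scalings, gene sums, thinning depths and clusterings, and the scripts were tested on simulated data. The members and gene lists were chosen with earlier results of these data known. By rule, the 10 genes were all described, with the 3 highest and 3 lowest co-detected pairs per library, 4 pairs of the Mmp2 activation complex and transmembrane enzymes, the highest and lowest cluster of genes with at least 500 UMIs, and the 2 genes most like each by cluster profile. The 2 largest changes each way were named per list of related genes. Mmp9, Furin, Bsg and Reck were named after their values were seen, a few genes that the rule names are not reported here, and Krt8 was looked at because its detection differs within the neurosphere library.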

Additional observations from a re-analysis of the deposited data

Results flagged for a closer look

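UMIs of the 10 genes were also present in barcodes outside the comparisons, which were left out for having few genes. They drew attention because their number was above the limit that a count of 0 allows. The 713 left-out adherent barcodes held 598 UMIs of the 10 genes (1525 CPM [1406, 1653]), with 0.417 protease UMIs for each Timp UMI. The 675 left-out neurosphere barcodes held 608 UMIs (1058 CPM [976, 1145]), with a ratio of 5.91. The median mitochondrial share was 48.8% and 87.0% in these barcodes, against 2.02% and 3.97% in the cells kept, and the order of the cultures was the same in the left-out barcodes. Mmp16 was at 224 CPM and 680.3 CPM in the left-out adherent and neurosphere barcodes, and Timp1 at 503 and 67.9 CPM.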

How the results depend on the processing

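With 1 library per culture, no replicate could be left out, and no paired analysis was possible because each culture has 1 library. Each gene's log2 fold change kept its sign under 12 alternatives. TMM scaling moved the median of all genes from 0.32 to 0.11, and keeping mitochondrial and ribosomal genes moved it to 0.54; the share of genes over 2-fold higher and lower became 16.1% and 14.5% with TMM, and 29.5% and 9.38% with those genes kept. The ratio of protease to Timp UMIs became 0.179 in adherent and 4.87 in neurosphere cells without cells over the 95th percentile of UMIs, 0.188 and 5.26 with every cell weighted equally, 0.108 and 1.13 without Mmp16, 0.403 and 12.0 without Timp1, 0.237 and 6.56 without Timp2, 0.194 and 5.00 without Timp3, and 0.0360 and 0.435 per kb of gene span, where the neurosphere ratio turned below 1. The neurosphere ratio was 5.23 with thinned cells and 4.46 with all Mmp and Timp genes. The log2 change between cultures was 4.92 with thinned cells, 3.38 without Mmp16, 4.90 without Timp1, 4.69 without Timp3 and 3.59 per kb of span. Co-detected pairs over 1.2 numbered 3 in adherent cells without thinning, with 3000 UMIs or with another seed, against 1. In neurosphere cells they numbered 9 of 29 pairs with 20 expected cells without thinning and 0 of 14 with 3000 UMIs, against 3 of 20. Fewer pairs reached that minimum at lower depth, and the ratios moved as well. The Mmp15 and Timp1 ratio in neurosphere cells was 1.02 without thinning. The cause of these moves was not tested. Chosen after the data were seen, leaving out the Neat1-led cluster lowered the highest adherent cluster ratio from 1.39 to 0.246 and turned the adherent correlation of Timp1 and Timp2 to -0.16, and leaving out the 12 barcodes found in both libraries changed no direction. With resolution 0.8 or another clustering seed, 6 genes had cluster ranges that did not overlap, adding Mmp2 and Mmp11, while the share over all genes was 14.0% and 10.9%, against 9.14%.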
